A study of Arabidopsis thaliana with 6 samples.

Results

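The transcripts described here are those whose level differed most between control arrays of wild-type Arabidopsis thaliana. They were chosen from 22746 probe sets that are not Affymetrix controls. A probe set is the group of probes on an array that reports 1 transcript. Of these, 9678 had a mean level of at least 6 over the 3 control arrays, on the scale log2(signal + 16), and the 150 with the largest standard deviation (SD) over those arrays were taken, which is 1.55% of the 9678. Their choice used the control values, so the size of the control SD and the order of the control arrays are given as a description with no test. The saliva arrays played no part in the choice.

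The series compared gene expression in Arabidopsis with and without saliva of the green peach aphid, Myzus persicae, which feeds on phloem sap. It holds 3 saliva arrays and 3 control arrays, all of Affymetrix type ATH1 and all hybridised with total RNA of accession Col-0. Saliva and control plants alike were wild type, grew on soil under a 16 h photoperiod at 23 °C, and were 3 weeks old and not yet flowering. For both groups the relative humidity was 50%, and seeds had been kept in the cold at 4 °C for 24 h. The labels used here give neither the tissue, nor how and for how long saliva was applied, nor what the control plants received.

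Some plant transcripts change within minutes of being touched, wounded or exposed to a microbe. Genes for zinc-finger, WRKY and AP2/ERF transcription factors and for calmodulin-like calcium sensors are well-known examples. Others follow the clock, nutrition or the state of the chloroplast, whose genome encodes part of the photosynthetic and ribosomal proteins. Control plants can thus differ in such transcripts from one sample to the next, and that spread is the measure against which a treatment is judged.

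The arrays had been brought to a common scale, with a trimmed mean signal of 100.01 on every array and median signals from 32.4 to 33.4. The number of arrays limits the precision of every SD below. Whether replicates were separate plants is not said in the labels, so the spread may be technical. All 7 photosynthesis genes named on the array met the level rule. Of 6 root markers 3 were named here, and their summed signal was 9.38 to 18.7 on saliva arrays and 8.10 to 17.3 on control arrays. The summed signal of 3 of 6 guard cell lineage markers was 44.6 to 55.2 on saliva arrays and 45.5 to 53.5 on control arrays, and no marker of flower, seed, phloem or xylem was named here. The log2 ratio of the 3′ to the 5′ ubiquitin control probe sets was 0.89, 1.15 and 1.62 on saliva replicates 1, 2 and 3, against 1.35, 1.3 and 1.4 on control replicates 1, 2 and 3. For GAPDH the ratio was 0.34, 0.63 and 0.43 on the saliva arrays and 0.42, 0.59 and 0.49 on the control arrays, and for actin it was 3.34, 3.71 and 3.18 with saliva and 3.65, 3.4 and 3.1 in control. Among the saliva arrays, replicate 3 had the highest ubiquitin ratio and replicate 2 the highest GAPDH and actin ratios, and the part of these differences in the results below was not tested.

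Of the 150 probe sets, 75 have 1 gene in the annotation, 5 have several and 70 are unnamed here. The share with 1 gene was 50.0%, near the 52% among all 9678 probe sets of the same level. The control SD at the cutoff was 0.402. Just inside it lay ZCF37 with 0.404 and the probe sets 256112_at with 0.403 and 265530_at with 0.402. Just outside lay 264250_at with 0.402, 249208_at with 0.401 and AT2G46100 with 0.401. The edge is thus a narrow step in a continuous ranking, and probe sets on either side of it had nearly the same control SD.

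Among the 150, the highest control array was a median of 1.85 times the lowest, counted on signal plus 16. In 40 of them the control arrays lay more than 2-fold apart, and no other probe set of this level did so, since 40 is also the count among all 9678. The saliva arrays lay more than 2-fold apart in 16 of the 150 (10.7%), against 0.486% of all 9678. The median saliva range of the 150 was 1.33-fold, against 1.19-fold over all.

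The members included 3 named transcription factors known from rapid responses, at ranks 7 (ORA47), 10 (STZ) and 120 (WRKY53) by control SD. ORA47, an AP2/ERF factor of the jasmonate response, had levels of 7.20, 7.01 and 6.89 on saliva replicates 1, 2 and 3, against 7.02, 8.52 and 7.86 on control replicates 1, 2 and 3. STZ, a zinc-finger repressor also called ZAT10, had 8.12, 8.62 and 7.83 with saliva and 7.71, 9.09 and 8.50 in control. WRKY53, a factor of immunity and leaf senescence, had 8.25, 8.33 and 7.71 with saliva and 7.48, 8.25 and 7.58 in control. For ORA47 the saliva arrays lay close together near the lowest control, with an SD of 0.156, while STZ kept an SD of 0.404 with saliva and WRKY53 one of 0.338. All 3 were highest on control replicate 2 and lowest on control replicate 1. Counted by family name among probe sets of this level, members were 1 of 4 WRKY factors and 1 of 1 zinc-finger genes. Of 17 AP2 or ERF factors, a count that leaves out ORA47, 0 were members. The median control SD was 0.133 over those 17 and 0.144 over the 4 WRKY factors, against 0.125 for all 9678.

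CML38, AT3G01830 and GRX480 were also highest on control replicate 2. CML38, a calmodulin-like protein, had levels of 6.38, 6.59 and 5.78 on the saliva arrays and 5.91, 6.67 and 5.85 on the control arrays. AT3G01830, another calmodulin-like protein, had 6.52, 6.17 and 5.77 with saliva and 6.01, 6.84 and 5.73 in control. GRX480, a CC-type glutaredoxin that acts in crosstalk between salicylate and jasmonate, had 6.87, 6.83 and 7.12 with saliva and 6.34, 7.32 and 6.83 in control. The saliva SD was 0.420 for CML38 and 0.376 for AT3G01830 but 0.156 for GRX480. In GRX480 every saliva value fell inside the control range. CML42, the other touch and calcium probe set that met the level rule, was no member, and it was highest on control replicate 3, with 7.67, 7.58 and 7.64 on the saliva arrays and 7.44, 7.57 and 7.91 on the control arrays.

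Genes of the plastid genome supplied 4 of the 150. The rpl36 transcript, which encodes a plastid ribosomal protein, had levels of 9.45, 9.51 and 9.07 with saliva and 8.13, 9.89 and 9.73 in control, the second largest control SD of all. The psbB transcript, which encodes the CP47 protein of photosystem II, had 10.26, 10.27 and 10.71 with saliva and 10.03, 11.19 and 10.63 in control. For ndhG, a subunit of the plastid NDH complex, the levels were 6.75, 6.96 and 7.0 with saliva and 6.65, 7.55 and 7.38 in control. These 3 were lowest on control replicate 1 and highest on control replicate 2. The other, rps18 of the plastid ribosome, was instead highest on control replicate 1, with 8.87, 8.69 and 8.45 on the saliva arrays and 9.37, 9.12 and 8.58 on the control arrays. The 4 members are 6.06% of the 66 plastid probe sets of this level, against 1.55% of all 9678, and the median saliva SD of those 66 was 0.160 beside a median control SD of 0.163.

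Further named members were 2 lipid-transfer genes, CSLA01 and 2 lectins. The transcripts AT4G12500 and AT4G12490 belong to neighbouring genes for proline-rich lipid-transfer proteins of the EARLI1 type, and how far their probes share signal was not tested. AT4G12500 had 7.58, 6.22 and 7.29 with saliva and 6.69, 6.15 and 7.18 in control. AT4G12490 had 8.88, 8.41 and 9.54 with saliva and 8.47, 7.82 and 8.63 in control. Both were lowest on replicate 2 in both groups, and their saliva SDs, 0.717 and 0.570, exceeded their control SDs, 0.516 and 0.425. CSLA01, a cellulose synthase-like enzyme of mannan synthesis, had 6.77, 6.78 and 7.37 with saliva and 7.08, 6.54 and 5.76 in control. The jacalin-type lectin AT1G52000 had 8.11, 7.85 and 8.47 with saliva and 8.14, 7.54 and 7.0 in control, and its relative JAL23 had 7.31, 7.11 and 7.83 with saliva and 7.13, 6.62 and 6.15 in control. CSLA01 and both lectins were highest on saliva replicate 3 and on control replicate 1, and lowest on control replicate 3.

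QQS, an orphan gene that affects how carbon is divided between starch and protein, had the largest saliva SD of all 9678 probe sets. Its levels were 6.77, 8.98 and 8.83 with saliva and 6.79, 7.15 and 8.04 in control. Saliva replicate 1 lay near the lowest control array and the other saliva arrays above every control. The saliva range was 4.62-fold and the control range 2.38-fold. Without saliva replicate 1 its saliva SD was 0.107. With limma's test the difference of 0.87 had an adjusted p of 0.547.

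Several leading transcripts were far more even with saliva than in control. AT2G39960, a signal peptidase subunit, had 8.41, 8.40 and 8.42 on the saliva arrays and 7.11, 8.47 and 8.57 on the control arrays. AT2G42760 had 6.73, 6.76 and 6.77 with saliva and 6.57, 7.48 and 6.44 in control. AT5G52050, a transporter of the MATE family, had 6.22, 6.16 and 6.25 with saliva and 5.54, 6.65 and 6.17 in control. Their saliva SDs were 0.0113, 0.0182 and 0.0475, all below the median saliva SD of probe sets of this level. In each of them the control values enclosed the saliva values. BUG22 had the same form, with 6.85, 6.96 and 6.90 on the saliva arrays against 7.05, 6.72 and 6.00 on the control arrays. A saliva SD under 0.1 was found in 19 of the 150 (12.7%), against 33.5% of all 9678.

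The remaining members among the 20 named ones with the largest control SD were AT4G29780, AT1G31870, AT1G15010, AT3G28270, AT4G04410, AT2G24600, an ankyrin-repeat protein, and AT4G18970, a GDSL-type lipase. AT4G29780 had 6.74, 6.96 and 6.52 with saliva and 6.55, 7.94 and 6.96 in control. AT3G28270 had 8.52, 8.80 and 9.32 with saliva and 8.73, 8.26 and 7.63 in control. In AT1G31870 a single array stood out, with 5.94, 5.91 and 5.70 with saliva and 5.75, 5.79 and 6.87 in control. Over these 20 named members control replicate 2 was the highest control in 11, replicate 3 in 5 and replicate 1 in 4. Over all 9678 the shares were 29.0%, 34.9% and 36.1%. The saliva SD was above the median of all probe sets in 15 of the 20 (50% of all) and reached 0.402 in 4 (1.86% of all). In 12 of the 20 all 3 saliva values lay inside the control range, against 15.5% of all, and these members were chosen for a wide control range.

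**Figure D1:**
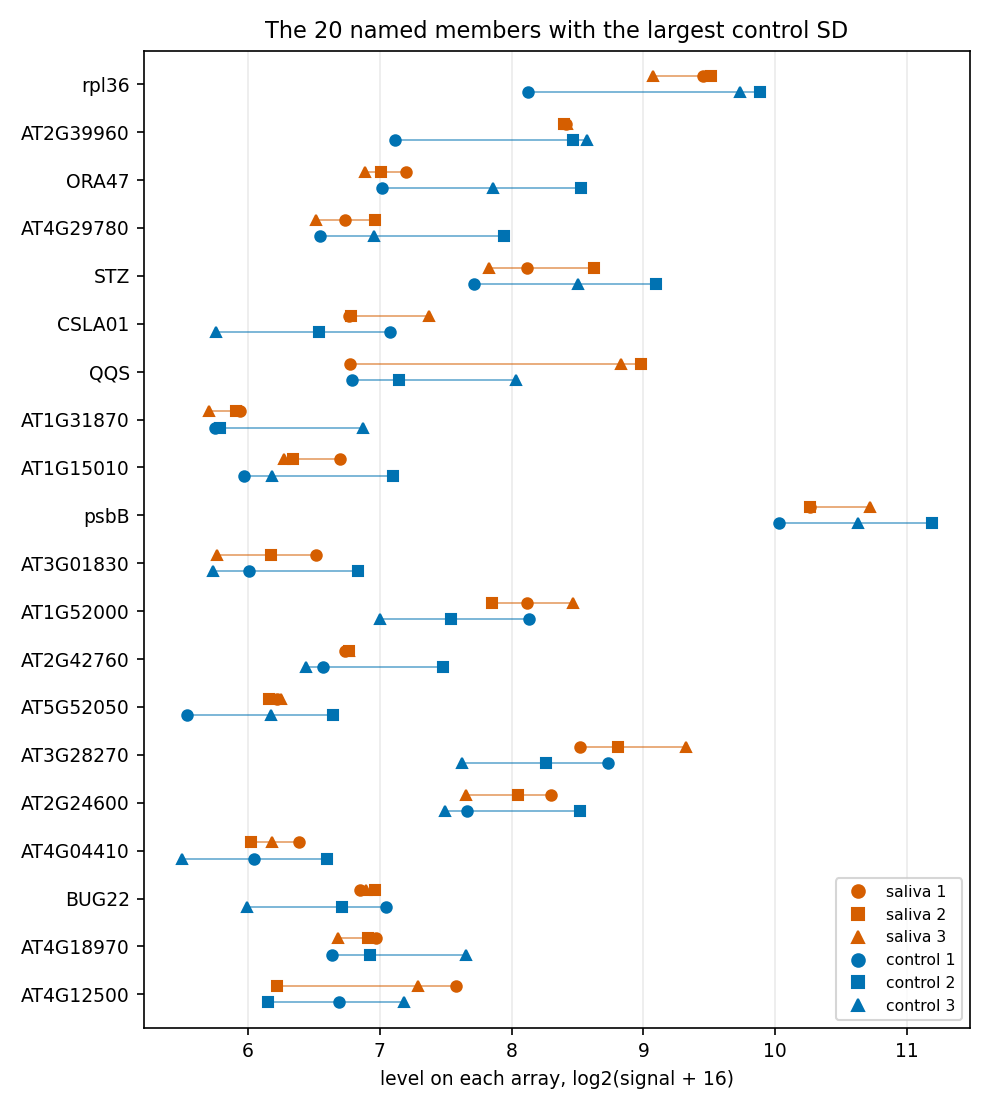
Level on each array, log2(signal + 16), of the 20 named members with the largest control SD, largest at the top, with saliva arrays in orange above control arrays in blue and marker shape giving the replicate number. Control replicate 2 is the highest control in 11 of the 20, against 29.0% of all 9678 probe sets of this level. The saliva points of AT2G39960, AT2G42760 and AT5G52050 nearly coincide while those of QQS span 4.62-fold.

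Large spread was also seen in unnamed probe sets, which held 5 of the 10 largest control SDs. As 4430 of all 9678 probe sets of this level were unnamed, this was near the background. The largest of all belonged to 247718_at, with 8.78, 9.17 and 10.11 with saliva and 8.67, 7.31 and 9.48 in control. Probe set 262566_at had 8.40, 8.34 and 6.98 with saliva and 8.72, 8.85 and 7.53 in control, so replicate 3 was the low array in both groups. Its saliva SD of 0.799 became 0.0423 without saliva replicate 3. For 253259_at the values were 6.30, 5.51 and 6.18 with saliva and 5.62, 7.46 and 6.23 in control. The saliva SDs of the 5 unnamed leaders, 260399_at and 266901_at included, lay between 0.368 and 0.799.

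The lists of genes by function used here covered few probe sets of this level. Of 32 lists with 477 entries, 18 had at least 1 probe set that met the level rule, 53 probe sets in all, and 6 of these were among the 150. These are STZ and WRKY53 of the rapid response factors (2 of 2 that met the rule), AT4G12500 and AT4G12490 of the lipid-transfer genes (2 of 2), GRX480 of the salicylate genes (1 of 1) and CML38 of the touch and calcium genes (1 of 2). The share was 11.3%, against 1.55% of all 9678. The lists were chosen with earlier results of these data known, and the members by their control values, so this share is a description. It also moved with single arrays. Control replicate 2 was the highest control in 4 of the 6 and the lowest in the other 2, and without it only 1 list gene was among the 150. No member came from the list of CC-type glutaredoxins, which does not hold GRX480 (0 of 11), the photosynthesis genes (0 of 7), the starvation and dark genes (0 of 5), the cold and drought genes (0 of 4), the cell wall growth genes (0 of 4) or the early pattern-triggered defence genes (0 of 3). The photosynthesis genes had a median control SD of 0.0564 and a median saliva SD of 0.117, below the 0.125 and 0.133 of all probe sets of this level. Other members with a known type of product that were not counted in a list include the peptide RALFL34, the stromal ascorbate peroxidase SAPX and VTC4 of ascorbate synthesis.

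By chromosome, the 150 included 23 of 1280 probe sets named to chromosome 1 (1.80%), 10 of 732 on chromosome 2 (1.37%), 12 of 1023 on chromosome 3 (1.17%), 17 of 730 on chromosome 4 (2.33%) and 8 of 1186 on chromosome 5 (0.675%). Probe sets whose name carries the suffix for shared or mixed targets made up 4.67% of the 150 and 3.76% of all 9678.

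The saliva arrays showed part of this spread. The median saliva SD of the 150 was 0.217 (quartiles 0.140 and 0.345, from 0.0113 to 1.23), against 0.133 for all 9678 probe sets. It was above the median of all in 118 of the 150 (78.7%), where 50% is the background. The median control SD of the same 150 was 0.459, the value they were chosen by, against 0.125 for all 9678. The members thus varied more than other probe sets of their level on arrays that had not been used to choose them. Their saliva SD was lower than their control SD, but a choice by large control SD favours this, so no conclusion is drawn from it. A saliva SD above the control SD was found in 16 (10.7%), against 53.3% of all, which the choice of large control SDs bears on directly.

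**Figure D2:**
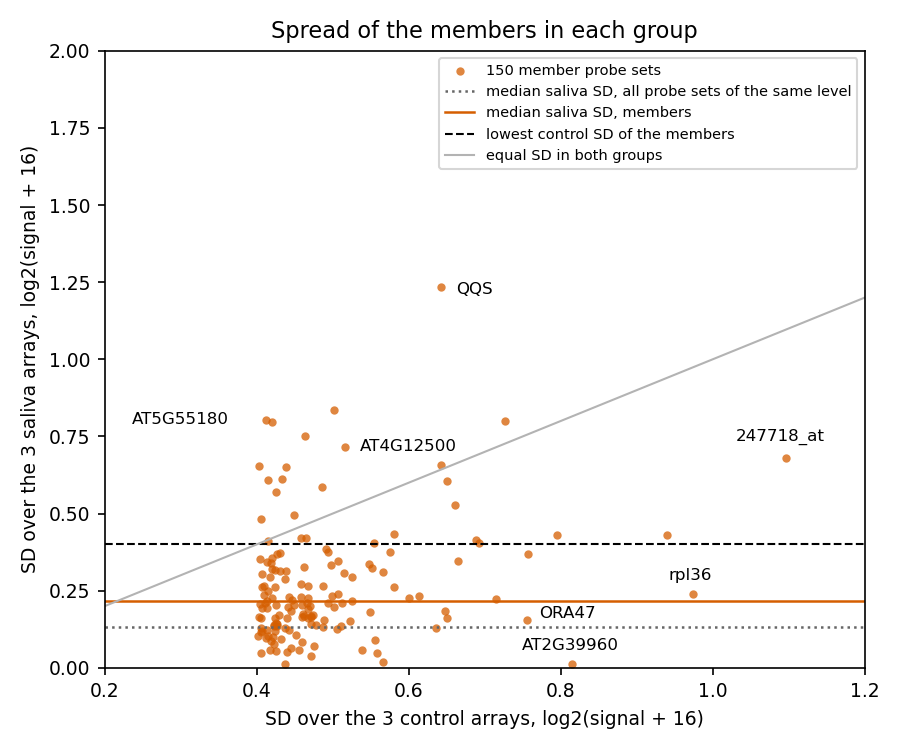
SD over the 3 saliva arrays (vertical) against SD over the 3 control arrays (horizontal), both in log2(signal + 16), for the 150 members, each point 1 probe set. The solid orange line is the members' median saliva SD of 0.217, the dotted line the 0.133 of all probe sets of this level, the dashed line the lowest control SD of the members, 0.402, and the grey line equal SD. Most points lie above the dotted line and below the grey one.

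A saliva SD of at least 0.402, the members' own lowest control SD, was reached by 28 of the 150 (18.7%), against 1.86% of all 9678 (180 probe sets). When the 9678 were ranked by saliva SD, 24 of the 150 were among the top 150, which is 16.0% of each list, against 1.55% of all. Those top 150 had a median saliva SD of 0.479 and a median control SD of 0.227. So most probe sets with the largest spread in one group were not those with the largest spread in the other. An SD over 3 arrays is imprecise, which by itself lowers such an overlap. The count therefore cannot show that different transcripts vary in each group. Without saliva replicate 3 the 28 became 14 (9.33%, against 1.48% of all) and the 24 became 14 (9.33%, against 1.55%). In that setting the median saliva SD of the 150 was 0.139, against 0.0942 for all probe sets. Without control replicate 2 the cutoff of a newly chosen 150 rose to 0.467, which 12 reached (8%, against 0.898% of all). Without control replicate 3 it rose to 0.436, which 18 reached (12%, against 1.22% of all).

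The median saliva SD of the members was above that of all probe sets in each range of level. The median saliva SD of the members against that of all probe sets was 0.202 against 0.141 for 67 members with a control mean from 6 to 7, and 0.205 against 0.133 for 41 members from 7 to 8. It was 0.294 against 0.127 for 27 members from 8 to 9 and 0.217 against 0.118 for 15 members above 9. By control SD, the first 50 members had a median saliva SD of 0.300, the next 50 had 0.186 and the last 50 had 0.206. Probe sets ranked 151 to 300 had 0.189, those ranked 301 to 600 had 0.160, and those ranked 601 to 1200 had 0.157. Those beyond had 0.129. The median was thus highest in the first 50 members, and the later members were close to the probe sets ranked just behind them.

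**Figure D3:**
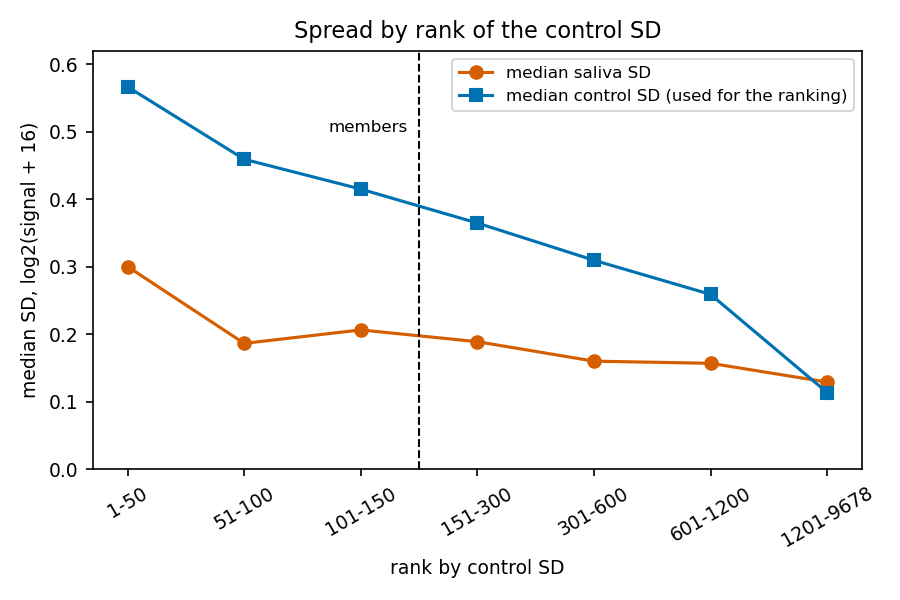
Median SD over the saliva arrays (orange circles) and over the control arrays (blue squares), in log2(signal + 16), for probe sets grouped by rank of the control SD, with the 150 members left of the dashed line. The saliva median is 0.300 in the first 50 and 0.129 beyond rank 1200, while the control median falls with the rank that defines the groups.

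The named members with the largest saliva SD, beside QQS and AT4G12500, were led by AT5G55180 and AT3G49340. AT5G55180, a glycosyl hydrolase of family 17, had 5.68, 6.06 and 7.22 with saliva and 5.88, 5.67 and 6.46 in control. AT3G49340, a cysteine protease, had 7.61, 6.53 and 8.09 with saliva and 6.69, 5.92 and 6.58 in control. ZCF37 had 7.09, 6.94 and 5.89 with saliva and 6.42, 7.16 and 6.52 in control. Saliva replicate 3 lay at 1 end of the saliva values in all 3, as the highest in AT5G55180 and AT3G49340 and the lowest in ZCF37. Without it the saliva SD was 0.274 in AT5G55180 and 0.103 in ZCF37 but 0.761 in AT3G49340. AT4G33380 had 6.47, 6.76 and 7.72 with saliva and 6.53, 6.61 and 7.33 in control, and AT4G02540 had 6.79, 7.13 and 7.76 with saliva and 7.13, 6.64 and 7.54 in control. In AT5G12940 the levels were 7.24, 6.53 and 6.09 with saliva and 6.20, 6.91 and 7.13 in control. Replicate 3 was the highest array in both groups for AT4G33380 and AT4G02540, while AT5G12940 was lowest on saliva replicate 3 and highest on control replicate 3.

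Control replicates 1, 2 and 3 held 35.2%, 32.4% and 32.4% of the members' summed squared deviations from the control mean, against 36.1%, 27.8% and 36.1% over all 9678. An array lying apart from the other 2 by at least 75% of the range was found in 63 of the 150 (42.0%), against 46.0% of all 9678, most often control replicate 2 on the high side (20 members, 13.3%, against 5.85% of all) and control replicate 1 on the low side (15 members, 10%, against 7.90%). Control replicate 1 was the lowest control in 74 members (49.3%, against 33.6% of all), replicate 3 in 55 (36.7%, against 35.9%) and replicate 2 in 21 (14.0%, against 30.5%). Control replicate 2 was the highest in 63 (42.0%, against 29.0%). The members were thus more often low on control replicate 1 and high on control replicate 2 than probe sets of this level in general. Leaving out control replicate 1, 2 or 3 before the choice kept 78, 82 or 76 of the 150. The new choice rests on an SD over 2 arrays, which by itself replaces members, so these counts do not tell the arrays apart.

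On the saliva side the spread was less even. Saliva replicates 1, 2 and 3 held 26.6%, 28.3% and 45.2% of the members' squared deviations, and 31.1%, 26.7% and 42.2% over all 9678. Saliva replicate 3 was the highest or lowest saliva array in 119 of the 150 (79.3%), against 73.6% of all. It was so in 25 of the 28 members with a saliva SD of at least 0.402. Those 28 were picked by their saliva SD, and the share among all 180 such probe sets was not counted, so the 25 has no background here. The larger share of saliva replicate 3 was thus found in the members and in the whole set alike.

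The deviation of each array from its group mean was set side by side over the 150 members. Between control replicate 2 and saliva replicate 3, Pearson's r was -0.52 over the 150 and -0.20 over all 9678. Between control replicate 2 and saliva replicate 2 it was 0.37 and 0.14, and between control replicate 1 and saliva replicate 3 it was 0.31 and 0.02. The other 6 pairs lay between -0.25 and 0.29 over the members. These values describe probe sets that share the same 6 arrays, and the deviations of a group sum to 0, so they are not independent and are given with no p.

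The members were also grouped by which control array was lowest or highest, and the place of saliva replicate 3 was counted in each of the 6 groups. Of the 21 members lowest on control replicate 2, 18 were highest on saliva replicate 3 (85.7%, against 40.4% of all probe sets lowest there) and 0 were lowest on it (against 34.2%). Of the 74 lowest on control replicate 1, 22 were highest on saliva replicate 3 (29.7%, against 32.3%) and 35 lowest on it (47.3%, against 39.1%). Of the 55 lowest on control replicate 3, 24 were highest on it (43.6%, against 27.3%) and 20 lowest (36.4%, against 47.4%). Turning to the highest control, 25 of the 40 members highest on control replicate 1 were highest on saliva replicate 3 (62.5%, against 33.8%) and 9 lowest (22.5%, against 41.8%). For the 47 highest on control replicate 3, 23 were highest on it (48.9%, against 38.1%) and 13 lowest (27.7%, against 33.4%). The counterpart of the first group, the 63 members highest on control replicate 2, held 33 that were lowest on saliva replicate 3 (52.4%, against 47.8%) and 16 that were highest (25.4%, against 25.8%), close to the background. The group of 21 was singled out after all these counts had been seen, and no test was made of it.

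**Figure D4:**
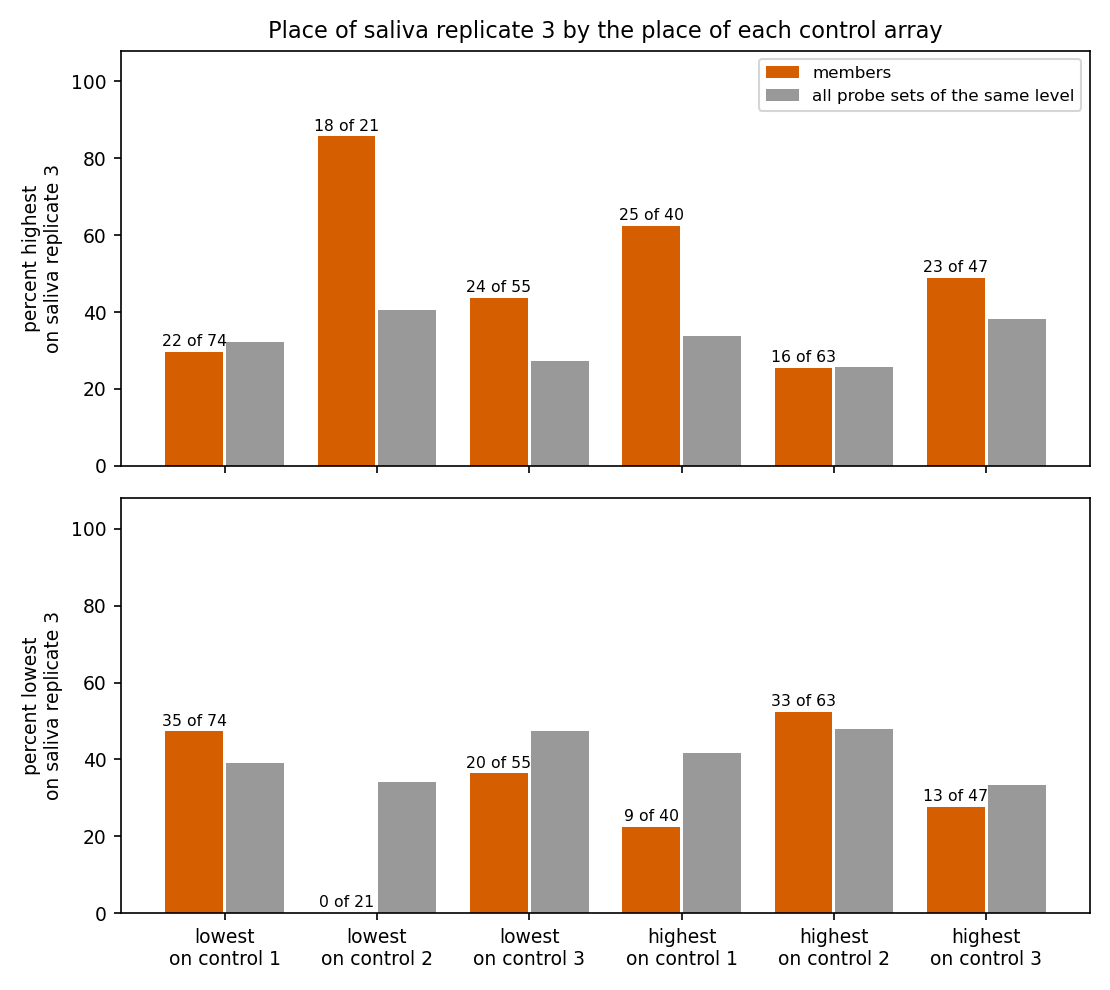
Percent of probe sets highest (upper panel) or lowest (lower panel) on saliva replicate 3, among the members (orange, with counts) and all 9678 probe sets of the same level (grey), for the 6 groups by which control array was lowest or highest. The members lowest on control replicate 2 have 18 of 21 highest and 0 of 21 lowest on saliva replicate 3, while those highest on control replicate 2 lie close to the grey bars.

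Another choice of members gives another group lowest on control replicate 2. It held 28 with a control mean of at least 7, 15 of them highest on saliva replicate 3 (53.6%). Among the 300 largest control SDs it held 51, 30 of them highest there (58.8%, against 40.4% of all lowest on control replicate 2). Chosen without control replicate 1 or 3, it held 53 or 51, of which 28 (52.8%) or 33 (64.7%) were highest on saliva replicate 3. With only 2 control arrays left, a larger share of members is lowest on control replicate 2 by construction. For the higher level, or with a control array left out, the share among all probe sets was not counted. The shares of members in those settings thus have no background here. Of all 2949 probe sets of this level lowest on control replicate 2, 60 reached a saliva SD of 0.402, and their median was 0.133. The 21 members of the main choice had a median saliva SD of 0.411, and 11 of them reached 0.402. They include AT5G55180, AT3G49340, both lipid-transfer genes, AT4G02540, SAPX and AT2G38870, a protease inhibitor with 8.65, 8.56 and 9.31 with saliva and 7.90, 7.79 and 8.55 in control. In AT2G38870 the lowest saliva value, 8.56, lay just above the highest control value, 8.55, and replicate 3 was the highest in both groups. SAPX had 7.18, 7.20 and 7.56 with saliva and 7.26, 6.90 and 7.72 in control, so its saliva values stayed inside the control range.

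**Figure D5:**
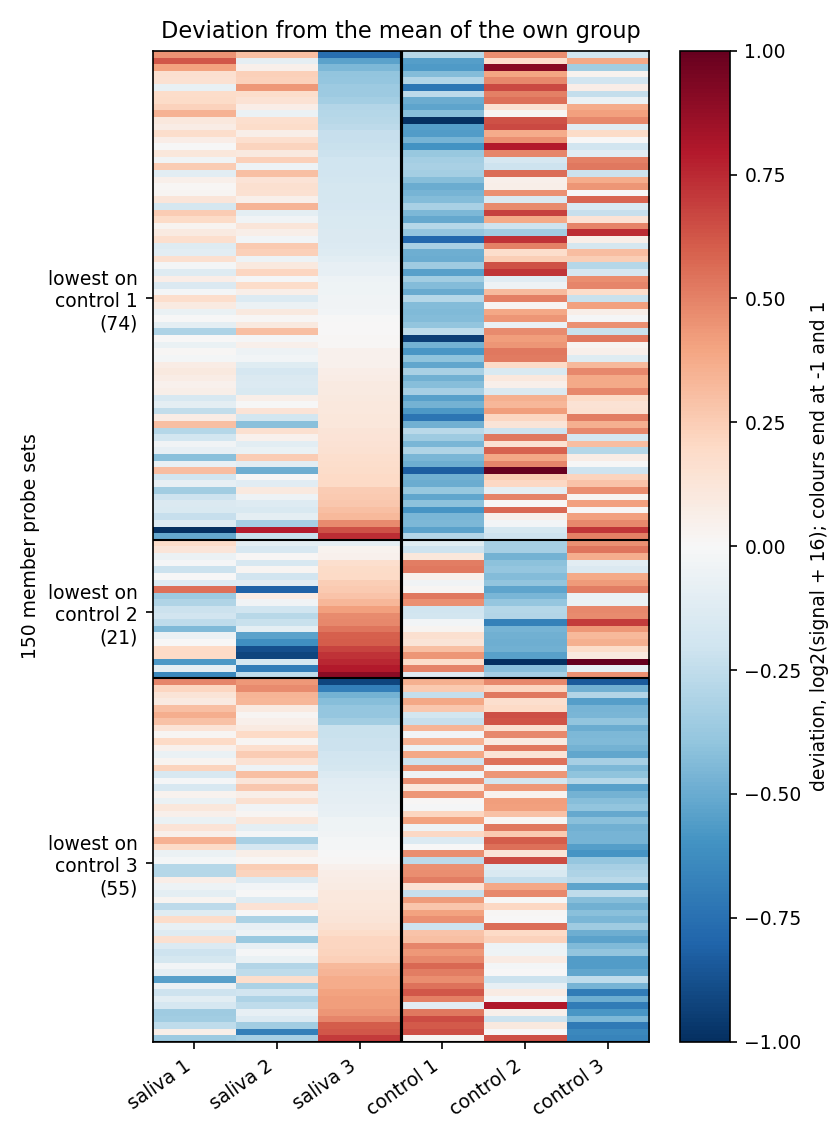
Deviation of each array from the mean of its own group, log2(signal + 16), for the 150 members, 1 row each, with saliva arrays left and control arrays right. Rows are grouped by the lowest control array (74, 21 and 55) and ordered by saliva replicate 3 within a group. Among the 21 rows lowest on control replicate 2, saliva replicate 3 is mostly red.

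Saliva was also compared with control for the 150, in the fit over all 13647 probe sets tested. The control SD used for the choice enters this test, so the counts below are a description. No member passed an adjusted p of 0.05 in limma without a replicate block, against 0.0586% of all tested (8 probe sets, 0.044% higher and 0.0147% lower with saliva). With a replicate block, 4 members passed, against 0.213% of all tested. The labels give replicate numbers, but not whether arrays of the same number were paired. In the limma fit without the block, 25 members had an unadjusted p under 0.05 (16.7%), against 10.2% of all. Of the 25, 17 were higher with saliva (11.3%, against 5.39%) and 8 were lower (5.33%, against 4.82%). The groups did not overlap in 8 members (5.33%), against 15.5% of all, 5 of them higher with saliva (against 7.8%) and 3 lower (against 7.72%). The median difference was 0.05 over the members and 0.01 over all tested.

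The smallest adjusted p among the members, 0.0673 in limma, belonged to the unnamed probe set 260203_at, with a difference of 1.00 ± 0.19 (SE). AT2G38870 differed by 0.76 ± 0.21 (SE), with an adjusted p of 0.193 in limma. AT3G49340, whose groups overlapped, differed by 1.01, with an adjusted p of 0.234. ORA47 differed by -0.77, with an adjusted p of 0.323. For STZ the difference was -0.25, with an adjusted p of 0.822, and for WRKY53 it was 0.33, with an adjusted p of 0.620. None of these passed the adjusted threshold in this fit, while 260203_at, AT2G38870 and AT3G49340 passed it with a replicate block.

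In 86 of the 150 members (57.3%) all 3 saliva values lay inside the control range, against 15.5% of all 9678, and wide control ranges were what the members were chosen for. GRX480, ndhG, BUG22 and AT2G39960 are among them. For these transcripts the saliva arrays gave no value that the control arrays did not enclose.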

How the data were processed

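Affymetrix ATH1 arrays of 3 saliva and 3 control samples were used, grouped by the agent in the labels. Each deposited signal is the intensity of a probe set, linear and scaled by the authors to a common trimmed mean. GCOS, MAS5 and limma are named in the submitters' processing notes, with neither role nor version. Of columns from other samples the table held 0. Levels are log2(signal + 16), which understates the change of dim probe sets, and SDs were taken over the 3 arrays of a group. Affymetrix control probe sets, 64 in number, were not used. For saliva against control, the 40% of probe sets with the lowest mean over all 6 arrays were left out, and 13647 were fitted in R 4.3.3 with limma 3.58.1 (lmFit, eBayes with a mean-variance trend, two-sided, Benjamini-Hochberg). The fit was tested on simulated data. Gene names came from the platform annotation, updated through RefSeq identifiers of assembly TAIR10.1, of which 99.4% were found. An unnamed probe set is not one without a gene.

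The members, the gene lists and the tests were chosen with earlier results of these data known. List members were recalled by locus without a check against a source. Named are, of members with 1 gene, the 20 with the largest control SD and the 10 with the largest saliva SD, up to 4 of each list with at least 2 members, 3 probe sets on either side of the cutoff, and unnamed ones among the 10 largest control SDs. GRX480, JAL23, ndhG, rps18, SAPX, VTC4, RALFL34, AT2G38870 and 260203_at were added after their values were seen. The groups by control array, and their place on saliva replicate 3, were added as well after the values had been seen. Alternatives were other offsets, quantile normalization, median centring, other cutoffs, a control SD relative to the level, no filter, no mean-variance trend, a replicate block and each array left out.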

Additional observations from a re-analysis of the deposited data

How the results depend on the processing

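With 3 arrays a group, an SD is imprecise, and signal over background was not available because no detection calls were used here. The median saliva SD of the members was above that of all probe sets under all 14 alternatives, by 1.47 to 2.45 times, against 1.63 times as reported. Its value ranged from 0.139 to 0.219 when 1 array was left out. The choice of members itself shared 117 of 150 at offset 1, 104 at offset 64, where every probe set meets the level rule, 146 after quantile normalization and 148 after median centring.

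Counts that moved by over 1.5 times were these, and the cause was not tested beyond the smaller or larger list. The members reaching their own cutoff with saliva were 10 of the 75 largest control SDs (13.3%, against 0.94% of all). They were 64 of the 300 largest (21.3%, against 4.23%), and 12 to 34 with 1 array left out (against 0.898% to 4.51%). The main choice gave 18.7%, against 1.86%. Those among the largest saliva SDs were 10 of 75 (13.3%, against 0.775% of all) and 57 of 300 (19%, against 3.1%). With 1 array left out they were 14 to 27 (against 1.55%), and the main choice gave 16.0%, against 1.55%. List genes among the members were 3 with a control mean of at least 7, 3 of the 75, and 1 to 6 with 1 array left out. Members lowest on control replicate 2 and highest on saliva replicate 3 were 7 of the 75 and 30 of the 300. These are 77.8% and 58.8% of those lowest on control replicate 2, against 40.4% of all such probe sets. With control replicate 1 or 3 left out they were 28 or 33, for which no background was counted. Members past an unadjusted p of 0.05 in limma were 42 of the 300, where 10.2% of all tested passed. With no filter they were 16 of the 150, where 7.94% of all passed.

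The replicate numbers were checked for pairing over the 13647 probe sets tested. Arrays of the same number correlated in their deviations with r of -0.06, 0.12 and 0.15, so not every pair was above 0.1 and the numbers are not treated as a pairing. Control replicates 2 and 3 correlated best with the saliva array of their own number and control replicate 1 with saliva replicate 2, which is a hint from the data and not from the design. With a replicate block, 4 members, AT3G49340, AT2G38870, 254818_at and 260203_at, all higher with saliva, passed an adjusted p of 0.05 in limma (29 probe sets in all, against 8 without it) and 42 an unadjusted one. Of the saliva SDs of the 39 named probe sets, 10 of 156 values moved by over 1.5 times with another offset or scaling, 9 of them at offset 64, and 36 of 117 moved with 1 saliva array left out, 21 of them without saliva replicate 3.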
